A study of Mus musculus with 24 samples.

Results

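The genes described here were the growth factor-induced transcription factors Egr1, Egr2, and Egr3, their corepressors Nab1 and Nab2, the serum response factor gene Srf, the immediate early response genes Ier2, Ier3, and Ier5, and Myc. These 10 genes were found by name among the 56941 genes of the deposited tables, and 10 of 10 were among the 13318 genes with enough counts to be tested. Egr1 was chosen by its measured fall at 4 and 10 Hz, so its levels are given as a description and were not tested. The other 9 genes were taken for their place in the same regulatory family, with earlier results of these libraries known.

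RNA was sequenced from 2D muscle tissues made of C2C12 myoblasts, a mouse cell line that fuses into fibers, of the genotype ChR2::tdTomato. Channelrhodopsin (ChR2) is a cation channel opened by blue light, and here it was fused to a red fluorescent tag so that light pulses made the fibers twitch. The 4 conditions of the study held 6 libraries each, namely unstimulated Control tissues and tissues given light pulses at 1Hz, 4Hz, or 10Hz for 30 min every day through differentiation. The study describes the 6 libraries of a condition as biological replicates. All tissues, Control included, lay on a grooved fibrin gel, were differentiated in horse serum with IGF-1, and received fresh medium daily shortly before the stimulation of the exercised tissues. They were driven electrically on a single day to test contraction, and tissues of this kind also twitched spontaneously. Control therefore stands for tissue without light and not for resting tissue. The time between the last light pulse and lysis is not stated in the sources used here, and it sets which phase of a transient response was sampled.

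Immediate early genes are transcribed within minutes of a stimulus such as serum, calcium entry, or stretch, without new protein synthesis, and their transcripts are short-lived. Many of them carry CArG boxes in their promoters, at which the SRF protein binds together with ternary complex factors that are activated by the ERK kinases. EGR1, EGR2, and EGR3 are zinc-finger transcription factors that share a GC-rich binding motif, and NAB1 and NAB2 bind to EGR proteins and repress their activity, with Nab2 itself an EGR-induced gene. In skeletal muscle, Egr genes respond to contraction and stretch, Egr3 is needed for the muscle spindle, and SRF drives the actin genes of the fiber.

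The bases before the transcription start are shown for Egr2 and Srf, which were among the 3 of the 10 members whose promoter window held a CArG box. They were read from the GRCm39 genome at the canonical start of the GENCODE M39 annotation, on the strand of the gene and 5′ to 3′, with the CArG boxes in capitals. The windows span chr10:67373442-67373691 (+ strand, Egr2) and chr17:46867120-46867369 (− strand, Srf).
Egr2: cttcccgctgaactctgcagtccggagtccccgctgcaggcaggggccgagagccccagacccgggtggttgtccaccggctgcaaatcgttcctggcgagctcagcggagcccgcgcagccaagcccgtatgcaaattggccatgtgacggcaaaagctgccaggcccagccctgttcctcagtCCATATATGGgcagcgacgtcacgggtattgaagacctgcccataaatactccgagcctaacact
Srf: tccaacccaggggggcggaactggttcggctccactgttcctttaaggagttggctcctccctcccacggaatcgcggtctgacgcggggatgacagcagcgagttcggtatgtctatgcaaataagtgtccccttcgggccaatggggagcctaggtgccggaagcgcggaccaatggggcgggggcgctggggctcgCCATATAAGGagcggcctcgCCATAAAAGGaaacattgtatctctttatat
The CArG box started 65 bases before the transcription start in Egr2, and the CArG boxes of Srf started 51 and 31 bases before it. The search covered 250 bases before to 50 bases after the start on both strands, and 1.54% of 21757 promoter windows of the same length held a CArG box. The CREB site TGACGTCA was found in 1 of the 10 windows, that of Ier2, 43 bases before the start, and in 2.45% of all windows. The EGR motif GCGTGGGCG (0.754% of all windows), the E-box CACGTG (7.82%), and the ETS motif CCGGAAGT (4.35%) were found in 0 of the 10, which says only that these letters were not in these windows. Each window is tied to the annotated start of 1 canonical transcript, and transcripts that begin elsewhere have other promoter bases, which were not searched.

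Total counts ranged from 4.09 to 15.2 M (mega) per library, and the lowest count of any member in any library was 40, for Egr2 at 10Hz. Levels are given as CPM, counts per M of library size, with library sizes scaled by the trimmed mean of M-values (TMM), as the lowest, median, and highest of the 6 libraries. Differences are log2 fold changes ± SE from edgeR's quasi-likelihood fit of all 24 libraries, with Benjamini-Hochberg adjusted p-values over the 13318 genes, and a gene was called where the adjusted p was below 0.05 and the log2 fold change beyond 0.5 in either direction. Each comparison with Control used the same 6 Control libraries. The tissues carried the markers of muscle fibers, with 11 of 11 fiber markers at a mean of at least 1 TPM (transcripts per M, which corrects for transcript length). Their summed TPM was 6080 to 7650 in Control, 8780 to 12000 at 1Hz, 8570 to 12700 at 4Hz, and 6010 to 9160 at 10Hz, so that the 1Hz and 4Hz libraries did not overlap Control. Markers of proliferating myoblasts summed to 39.8 to 62.2 TPM in Control, 37.7 to 49.1 TPM at 1Hz, 26.6 to 42.7 TPM at 4Hz, and 43.1 to 51.8 TPM at 10Hz. In that list 4 of 6 reached a mean of 1 TPM, namely Cdk1 (22.5 TPM), Myf5 (13.7 TPM), Ccnb1 (4 TPM), and Top2a (3.33 TPM). Pax7 (0.744 TPM) and Mki67 (0.196 TPM) did not, so the sum rested mostly on Cdk1 and Myf5. Of the endothelial, leukocyte, and adipocyte markers 0 of 12 reached a mean of 1 TPM. Tie1, an endothelial marker, was at 0 in every library. The part of these shifts in the results below was not tested, and in bulk tissue fewer expressing cells and less RNA per cell cannot be told apart.

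**Figure D1:**
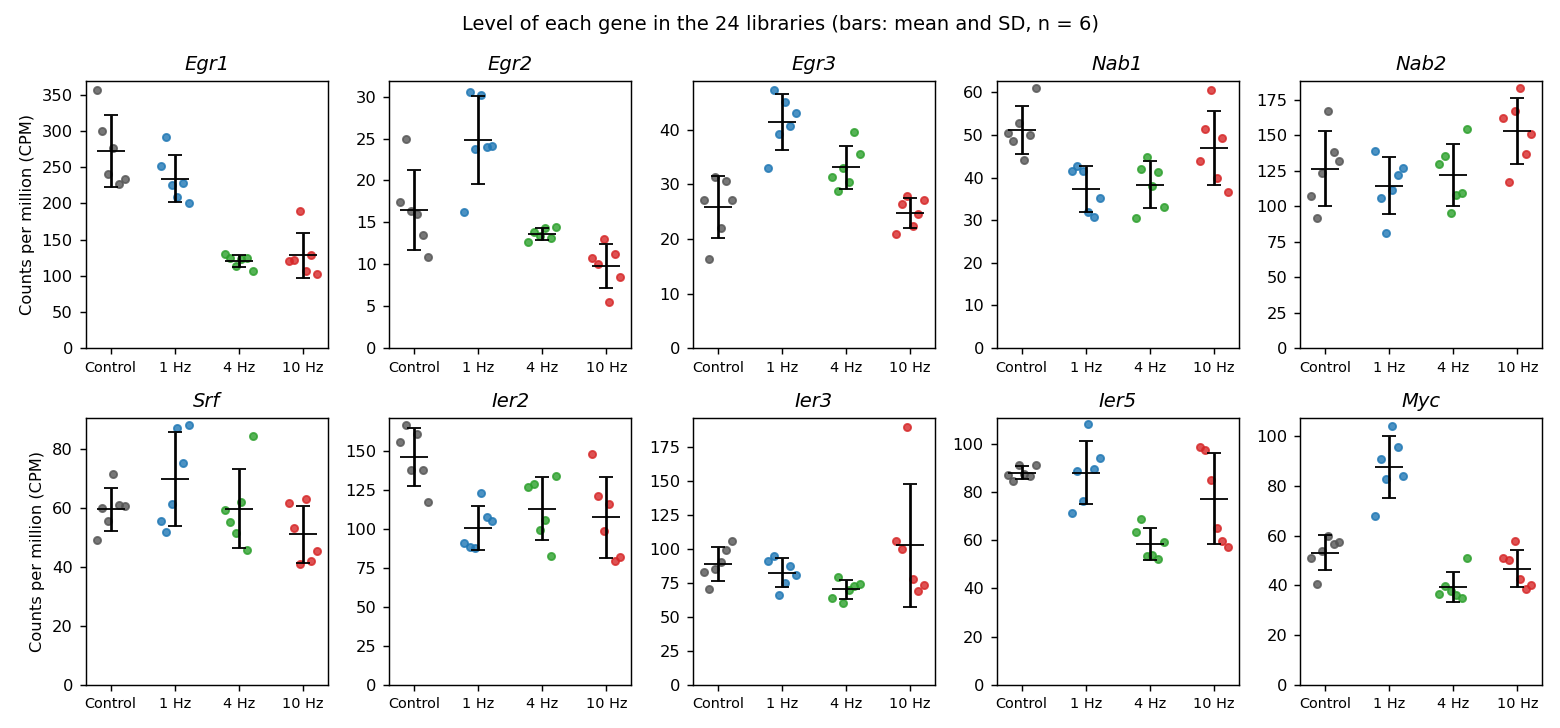
Level of each of the 10 genes in CPM (y axis, from 0) in the 24 libraries, grouped by condition (x axis). Points are libraries and bars are the mean and SD of 6 libraries. Egr1 at 4Hz (107 to 130 CPM) and 10Hz (102 to 189 CPM) sits below every Control library, while Egr3 and Myc at 1Hz sit above every Control library.

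Egr2, Egr3, and Myc had their highest mean level at 1Hz, and Egr1 had its lowest levels at 4 and 10Hz. Against Control, 4 of the 9 tested members were called at 1Hz, namely Egr2, Egr3, and Myc higher and Ier2 lower, where 18.3% of all tested genes were called (9.34% higher and 8.99% lower). At 4Hz, 1 of 9 was called (Ier5, lower), near the background of 20.1% (10.5% higher and 9.61% lower). At 10Hz, 1 of 9 was called (Egr2, lower), where 1.86% of genes were (1.24% higher and 0.623% lower). Between frequencies, 3 of 9 were called for 4Hz against 1Hz (Egr2, Ier5, and Myc, all lower; background 3%), 3 of 9 for 10Hz against 1Hz (Egr2, Egr3, and Myc, all lower; background 17.9%), and 1 of 9 for 10Hz against 4Hz (Ier3, higher; background 11%). Nab1, Nab2, and Srf were called in 0 of 6 comparisons. The calls at 1 and 4Hz against Control, that of Ier3 between 10 and 4Hz, and that of Egr3 between 10 and 1Hz were lost when the small RNA share of the libraries, described further on, entered the fit.

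Egr1, the founding member of the family, was the most abundant of the 10 in CPM in Control, at 227, 258, and 356 CPM (lowest, median, and highest). It reached 200, 227, and 291 CPM at 1Hz, 107, 123, and 130 CPM at 4Hz, and 102, 121, and 189 CPM at 10Hz. In the order of the means, Control (272 ± 49.6 CPM, SD) lay above 1Hz (234 ± 32.8 CPM), 10Hz (128 ± 31.6 CPM), and 4Hz (120 ± 8.74 CPM). The libraries of Control and 1Hz overlapped, and so did those of 10Hz and 4Hz, whereas no library at 4 or 10Hz reached the lowest library of 1Hz or Control. The log2 fold change against Control was -0.22 ± 0.13 at 1Hz, -1.18 ± 0.13 at 4Hz, and -1.09 ± 0.13 at 10Hz, and it was -0.96 ± 0.13 for 4Hz against 1Hz. The highest 10Hz library, replicate 3, stood apart from the other 5 at that frequency, and without it the 10Hz difference from Control was -1.24. Egr1 lies on chromosome 18.

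Egr2, known for its role in myelinating Schwann cells and in lymphocytes, rose at 1Hz and fell at 10Hz. Its libraries held 10.9, 16.2, and 25 CPM in Control, 16.2, 24.1, and 30.6 CPM at 1Hz, 12.7, 13.6, and 14.4 CPM at 4Hz, and 5.46, 10.4, and 13 CPM at 10Hz. The 1Hz libraries overlapped Control, with 2 of 6 above its highest library, and 4 of 6 libraries at 10Hz lay below its lowest. Against Control, the log2 fold change was 0.58 ± 0.17 at 1Hz (edgeR adjusted p = 0.0105), -0.28 ± 0.17 at 4Hz (adjusted p = 0.203), and -0.75 ± 0.18 at 10Hz (adjusted p = 0.0147). The order of the means was 1Hz, Control, 4Hz, and 10Hz. Between frequencies the separation was complete for 1Hz against either of the others, at -0.86 ± 0.17 for 4Hz against 1Hz (edgeR adjusted p = 0.00176) and -1.32 ± 0.17 for 10Hz against 1Hz (adjusted p = 4.38e-06). The rise at 1Hz was not called without Control replicate 6 (log2 fold change 0.49, edgeR adjusted p = 0.0288), with total count scaling (0.49, adjusted p = 0.0282), or with limma on log2(TPM + 1) (0.39, adjusted p = 0.101) and log2(TPM + 0.1) (0.42, adjusted p = 0.122), and it held in 8 of 13 alternatives. The fall at 10Hz was not called without Control replicate 2 (-0.58, adjusted p = 0.0687). The 10Hz against 4Hz difference, -0.47 ± 0.18 (edgeR adjusted p = 0.0565), was called only without 10Hz replicate 3, at -0.57 (adjusted p = 0.0324). Markers of Schwann cells, which use Egr2, summed to at most 4.73 TPM in any library, and in that list 1 of 4 genes reached a mean of 1 TPM. Egr2 lies at chr10:67371305-67378018, and the antisense lncRNA Gm66196 overlaps that span without overlapping an Egr2 exon.

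Egr3, the family member required for muscle spindles, rose at 1Hz. It was found at 16.3, 27.2, and 31.4 CPM in Control, 33, 42, and 47.4 CPM at 1Hz, 28.8, 32.2, and 39.6 CPM at 4Hz, and 20.9, 25.5, and 27.8 CPM at 10Hz. Every 1Hz library exceeded every Control library and every 10Hz library, whereas 3 of 6 libraries at 4Hz exceeded Control. The log2 fold change was 0.69 ± 0.13 at 1Hz (edgeR adjusted p = 0.000183), 0.36 ± 0.12 at 4Hz (adjusted p = 0.0224, not called because the change is below 0.5), and -0.05 ± 0.13 at 10Hz (adjusted p = 0.875). In order of the means, 1Hz lay above 4Hz, Control, and 10Hz, and the last pair overlapped. Egr3 was lower at 10Hz than at 1Hz, with a log2 fold change of -0.74 ± 0.12 (edgeR adjusted p = 6.02e-05). It was also lower at 10Hz than at 4Hz in 6 of 6 libraries, with no overlap, but that difference of -0.42 ± 0.12 (edgeR adjusted p = 0.0162) was below the fold limit. Leaving out any 1 library changed 0 of these calls. Egr3 lies at chr14:70314350-70320063 on the + strand.

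The corepressor genes were not called in any of the 6 comparisons. Nab1 was at 44, 50.2, and 61.1 CPM in Control, 30.8, 38.4, and 42.7 CPM at 1Hz, 30.6, 39.6, and 44.8 CPM at 4Hz, and 36.7, 46.6, and 60.6 CPM at 10Hz. All 6 of the 1Hz libraries and 5 of 6 at 4Hz lay below the lowest Control library. These differences of -0.46 ± 0.12 at 1Hz (edgeR adjusted p = 0.00414) and -0.42 ± 0.12 at 4Hz (adjusted p = 0.00664) passed the p limit and not the fold limit, and with scaling by total count both were called (-0.53 and -0.51). At 10Hz the difference from Control was -0.12 ± 0.12 (edgeR adjusted p = 0.606), with a 95% interval of -0.36 to 0.12. Nab1 lies at chr1:52494147-52539838 on the − strand.

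Nab2 was more than 2 times as abundant as Nab1, at 126 ± 26.2 CPM in Control against 51.2 ± 5.68 CPM (SD), and also per transcript length, at 82.3 against 20.9 TPM. Its libraries ranged from 91.4 to 167 CPM in Control (median 128), 81.4 to 139 CPM at 1Hz (median 117), 94.8 to 154 CPM at 4Hz (median 120), and 117 to 183 CPM at 10Hz (median 157). The 4 conditions overlapped, and 10Hz was the highest by its mean, 153 ± 23.4 CPM. Against Control the log2 fold change was -0.15 ± 0.14 at 1Hz (edgeR adjusted p = 0.437), -0.05 ± 0.14 at 4Hz (adjusted p = 0.794), and 0.27 ± 0.14 at 10Hz (adjusted p = 0.264). The largest difference was 0.42 ± 0.14 for 10Hz against 1Hz (edgeR adjusted p = 0.0197), below the fold limit. Nab2, at chr10:127496786-127504458 on the − strand, shares exonic bases with the genes Nemp1 (14% of its exonic bases), Gm16229 (22.5%), and Stat6 (1.65%) on the opposite strand. The study's methods name a directional library kit, which keeps the strand, whereas the strand setting of the counting is not stated in the sources used here, and the level of Nab2 is uncertain to that extent.

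Srf, whose protein binds the CArG box and so can act on its own promoter, was not called in any comparison. Its levels were 49, 60.3, and 71.4 CPM in Control, 52, 68.3, and 88.3 CPM at 1Hz, 45.8, 57.4, and 84.6 CPM at 4Hz, and 41, 49.3, and 63.1 CPM at 10Hz. All pairs of conditions overlapped. The log2 fold change against Control was 0.24 ± 0.15 at 1Hz (edgeR adjusted p = 0.218, 95% interval -0.07 to 0.54), 0.01 ± 0.15 at 4Hz (adjusted p = 0.972, -0.29 to 0.31), and -0.22 ± 0.15 at 10Hz (adjusted p = 0.426, -0.53 to 0.08). The sign of the 4Hz value turned under other scalings, to -0.09 with total counts. Between frequencies, 10Hz lay below 1Hz at -0.46 ± 0.15 (edgeR adjusted p = 0.0161), and this was called when 1Hz replicate 1 (-0.52), 1Hz replicate 2 (-0.53), 10Hz replicate 1 (-0.53), or 10Hz replicate 4 (-0.53) was left out. Srf lies at chr17:46857767-46867119 on the − strand.

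Of the 3 Ier genes, Ier2 fell at 1Hz, Ier5 fell at 4Hz, and Ier3 was higher at 10Hz than at 4Hz. Ier2, a single-exon gene at chr8:85387960-85389483 that encodes a nuclear protein, had the highest TPM of the 10 in Control (156 ± 23 TPM, against 133 ± 25 TPM for Egr1). It was at 117, 147, and 167 CPM in Control, 87.5, 98.2, and 123 CPM at 1Hz, 82.4, 117, and 134 CPM at 4Hz, and 79.4, 107, and 148 CPM at 10Hz. Below the lowest Control library lay 5 of 6 libraries at 1Hz, 3 at 4Hz, and 4 at 10Hz. The log2 fold changes were -0.54 ± 0.14 at 1Hz (edgeR adjusted p = 0.00353), -0.37 ± 0.14 at 4Hz (adjusted p = 0.0326), and -0.44 ± 0.14 at 10Hz (adjusted p = 0.0598), and only the first was called. That call was lost, at a value close to the fold limit, without Control replicate 2 (-0.49, edgeR adjusted p = 0.0127) or 1Hz replicate 3 (-0.50, adjusted p = 0.0109) and in DESeq2 with apeglm (-0.49, adjusted p = 0.000805), while without 10Hz replicate 1 the 10Hz fall was called (-0.56, adjusted p = 0.0134). The 3 stimulated conditions overlapped one another, and the differences between them ranged from -0.07 to 0.17.

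Ier5, another single-exon gene, at chr1:154972107-154975382, encodes a regulator of heat shock factor. Control libraries were tightly placed at 84.5, 87.2, and 91.2 CPM, and the others at 71.3, 89.1, and 108 CPM (1Hz), 52.2, 56.6, and 68.6 CPM (4Hz), and 57.2, 75, and 98.8 CPM (10Hz). No 4Hz library reached the lowest library of Control or of 1Hz. The fall at 4Hz was -0.59 ± 0.12 against Control (edgeR adjusted p = 0.000438) and -0.59 ± 0.12 against 1Hz (adjusted p = 0.00227). Ier5 at 1Hz was level with Control at 0.00 ± 0.12 (edgeR adjusted p = 0.998, 95% interval -0.25 to 0.25). The 10Hz libraries spanned both ranges, at -0.18 ± 0.12 against Control (edgeR adjusted p = 0.417) and 0.41 ± 0.12 against 4Hz (adjusted p = 0.0169, below the fold limit). Leaving out any 1 library changed 0 of the Ier5 calls.

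Ier3, at chr17:36132568-36133815, encodes a regulator of cell survival and of ERK signaling. It was at 70.3, 87.9, and 106 CPM in Control, 66.1, 84.1, and 94.9 CPM at 1Hz, 60.4, 71.5, and 79.6 CPM at 4Hz, and 69.2, 88.7, and 190 CPM at 10Hz. The value of 190 CPM was that of 10Hz replicate 3, the same library that was highest for Egr1. The 10Hz against 4Hz difference of 0.55 ± 0.17 was called (edgeR adjusted p = 0.02) with 3 of 6 libraries at 10Hz above 4Hz, and without that library it was 0.28 (adjusted p = 0.0968). It was also lost without 4Hz replicate 3 (0.51, edgeR adjusted p = 0.0503). Against Control the log2 fold change was -0.11 ± 0.17, -0.34 ± 0.17, and 0.21 ± 0.17 at 1, 4, and 10Hz (edgeR adjusted p = 0.63, 0.115, and 0.52). The lncRNA Gm66231 overlaps 34.8% of its exonic bases on the opposite strand, so that its level is uncertain in the same way as that of Nab2.

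Myc, which encodes a transcription factor of growth and ribosome synthesis, showed the largest difference between 4 and 1Hz among the tested members. Its levels were 40.4, 55.2, and 60.1 CPM in Control, 68, 87.4, and 104 CPM at 1Hz, 35.1, 37.1, and 51.2 CPM at 4Hz, and 38.7, 46.4, and 57.7 CPM at 10Hz. Every 1Hz library lay above every library of the other 3 conditions, which overlapped one another. Against Control, Myc was higher at 1Hz by 0.72 ± 0.12, a 1.65-fold difference (edgeR adjusted p = 5.12e-05), and was -0.43 ± 0.12 at 4Hz (adjusted p = 0.00506, below the fold limit) and -0.18 ± 0.12 at 10Hz (adjusted p = 0.395). The log2 fold change was -1.15 ± 0.12 for 4Hz against 1Hz (edgeR adjusted p = 5.51e-07) and -0.91 ± 0.12 for 10Hz against 1Hz (adjusted p = 2.68e-06). The 4Hz replicate 6 library, at 51.2 CPM, stood above the other 5, and without it the 4Hz fall from Control was called (-0.51, edgeR adjusted p = 0.0011). Myc lies at chr15:61857227-61862223 on the + strand, and the antisense Gm62594 overlaps 3.7% of its exonic bases.

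**Figure D2:**
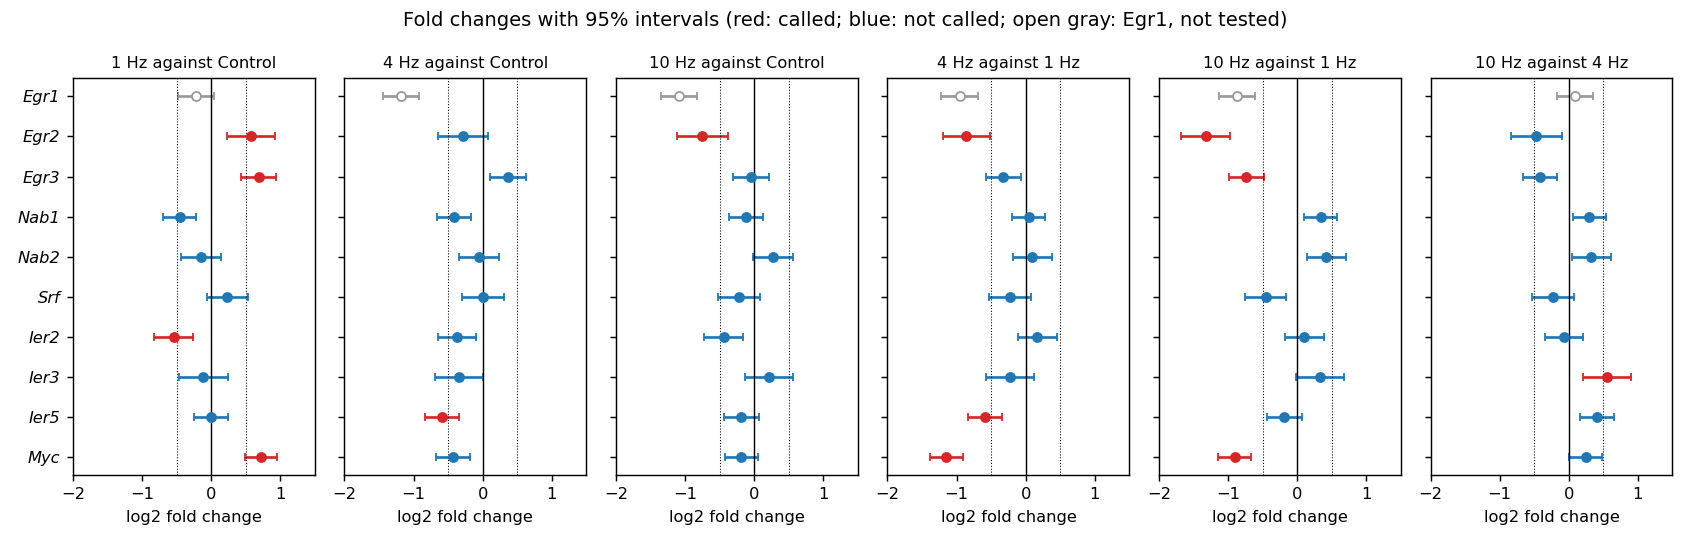
Log2 fold change (x axis) of each of the 10 genes (y axis) in the 6 comparisons, 1 panel each, with 95% intervals. Dotted lines mark the fold limit of 0.5, red points were called, blue points were not, and the open gray point is Egr1, which was not tested. Egr2 and Myc lie left of zero in both comparisons of a higher frequency with 1Hz.

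The make-up of the libraries moved with the conditions. The mean total count was higher at 4Hz than in Control (9.12 ± 1.67 against 5.67 ± 1.33 M, SD, exact permutation p = 0.00433, adjusted p = 0.00866). The means at 1Hz (8.16 ± 3.98 M, exact permutation p = 0.184, adjusted p = 0.221) and 10Hz (8.19 ± 2.4 M, exact permutation p = 0.0455, adjusted p = 0.0682) also lay above Control, without passing after adjustment. The share of 24 small noncoding RNAs without a poly(A) tail in the total count was 98.6 to 169 CPM in Control, 15.6 to 70 CPM at 1Hz, 19.5 to 50.9 CPM at 4Hz, and 38.5 to 274 CPM at 10Hz. It differed from Control at 1 and 4Hz without overlap (2-sided exact permutation p = 0.00216, the smallest 6 against 6 libraries can give, adjusted p = 0.00649) and not detectably at 10Hz (exact permutation p = 0.866). The labels state that some samples of low input were ribodepleted in place of poly(A) selection and do not name them. With the log2 share as a covariate, 0 of 9 members were called at 1Hz and 0 of 9 at 4Hz against Control, in fits in which 1 and 220 genes of all 13318 were called. In those comparisons the share and the stimulation cannot be told apart. The fitted value of Myc at 1Hz was then 0.86 ± 0.20 (edgeR adjusted p = 0.18), that of Egr3 0.63 ± 0.21 (adjusted p = 0.286), that of Egr2 0.38 ± 0.29 (adjusted p = 0.718), and that of Ier2 -0.31 ± 0.23 (adjusted p = 0.702). Ier5 at 4Hz was -0.27 ± 0.19 (edgeR adjusted p = 0.505).

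The 1Hz and 4Hz libraries had overlapping shares, and there the covariate moved the members little. For 4Hz against 1Hz, Egr2 was at -0.85 ± 0.17 (edgeR adjusted p = 0.00199), Ier5 at -0.60 ± 0.11 (adjusted p = 0.00123), and Myc at -1.16 ± 0.12 (adjusted p = 5.11e-07), so that the same 3 genes were called. For 10Hz against 1Hz, Egr2 (-1.15 ± 0.28, edgeR adjusted p = 0.03) and Myc (-1.03 ± 0.18, adjusted p = 0.00581) were called and Egr3 was not (-0.69 ± 0.19, adjusted p = 0.059). At 10Hz against Control, Egr2 was called in either fit (-0.77 ± 0.18 with the share, edgeR adjusted p = 0.0148). Of all 13318 genes, 411, 172, and 204 were called with the share in these 3 comparisons, in the order given. Ier3 at 10Hz against 4Hz was then at 0.16 ± 0.25 (edgeR adjusted p = 0.974), in a fit in which 0 of all genes were called. In that comparison 939 genes (7.05%), and 0 of the tested members, had an unadjusted p below 0.05.

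**Figure D3:**
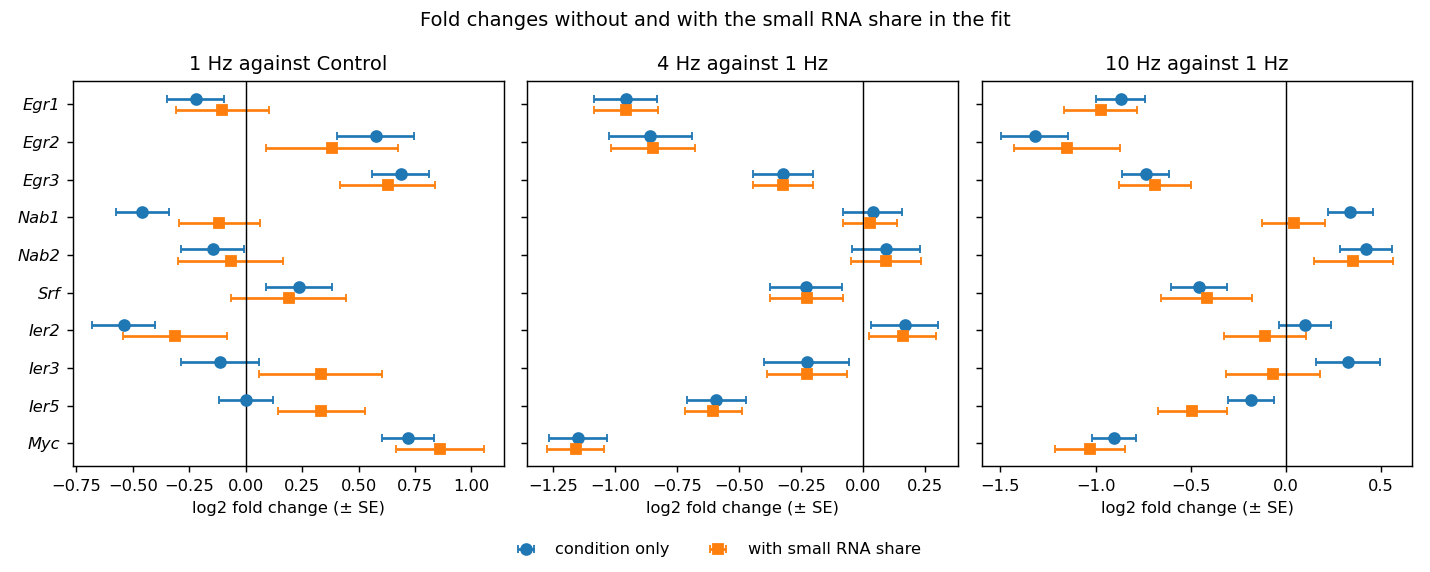
Log2 fold change ± SE (x axis) of the 10 genes (y axis) without (blue circles) and with (orange squares) the small RNA share in the fit, for 1Hz against Control, 4Hz against 1Hz, and 10Hz against 1Hz. The pairs of points nearly coincide for 4Hz against 1Hz, whereas at 1Hz against Control the SE widens and Nab1, Ier3, and Ier5 shift to the right.

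The spread inside a condition was not used to choose Egr1, and its relation to the other genes was therefore tested there, on log2 CPM with each condition mean removed. Of 11 relations (9 members, total count, and small RNA share), 1 passed a permutation test within conditions after adjustment, that of Egr1 with Srf. Libraries with more Egr1 than the rest of their condition had less Srf, with Pearson's r = -0.57 over 24 libraries (permutation p = 0.00229, BH adjusted p = 0.0252) and Spearman's rho = -0.58 (permutation p = 0.00323, BH adjusted p = 0.0355). Without the 2 libraries farthest from the median of Egr1 (10Hz replicate 3 and Control replicate 1), r was -0.50 (unadjusted permutation p = 0.029). Within the single conditions r was -0.44 in Control, -0.91 at 1Hz, -0.58 at 4Hz, and -0.55 at 10Hz, and 98.2% of 9294 genes had a higher r with Egr1 than Srf had. The relation did not pass after adjustment with the replicate number as a block (r = -0.45, BH adjusted permutation p = 0.268), with total count scaling (r = -0.52, BH adjusted permutation p = 0.0992), or when the libraries numbered 1, 2, 4, 5, or 6 were left out (BH adjusted permutation p from 0.0683 to 0.176).

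Egr2 (r = 0.51), Ier3 (r = 0.48), and Nab1 (r = 0.44) had positive relations with Egr1 that did not pass (BH adjusted permutation p = 0.194, 0.286, and 0.194). Without the same 2 libraries these were 0.43, 0.06, and 0.29, so that the value of Ier3 rested on them. The signs were mixed inside the single conditions, in the order Control, 1Hz, 4Hz, and 10Hz. There r was 0.636, 0.001, -0.581, and 0.728 for Egr2, and -0.655, 0.625, 0.013, and 0.867 for Ier3. For Nab1 it was -0.391, 0.657, -0.065, and 0.922. Over the 24 libraries, Myc (r = 0.00), Ier2 (-0.01), Egr3 (-0.12), Ier5 (0.13), and Nab2 (-0.17) were closer to zero. Each of these genes had r of both signs among the conditions. In the same order of conditions, Myc was at -0.498, -0.226, -0.775, and 0.714, and Ier2 at 0.705, -0.669, -0.141, and -0.056. Without the same 2 libraries r was -0.34 for Myc, 0.01 for Ier2, -0.44 for Egr3, 0.02 for Ier5, and -0.27 for Nab2. Total count (r = -0.16, BH adjusted permutation p = 0.877) and small RNA share (r = 0.16, adjusted permutation p = 0.886) had no detectable relation with Egr1 inside the conditions.

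**Figure D4:**
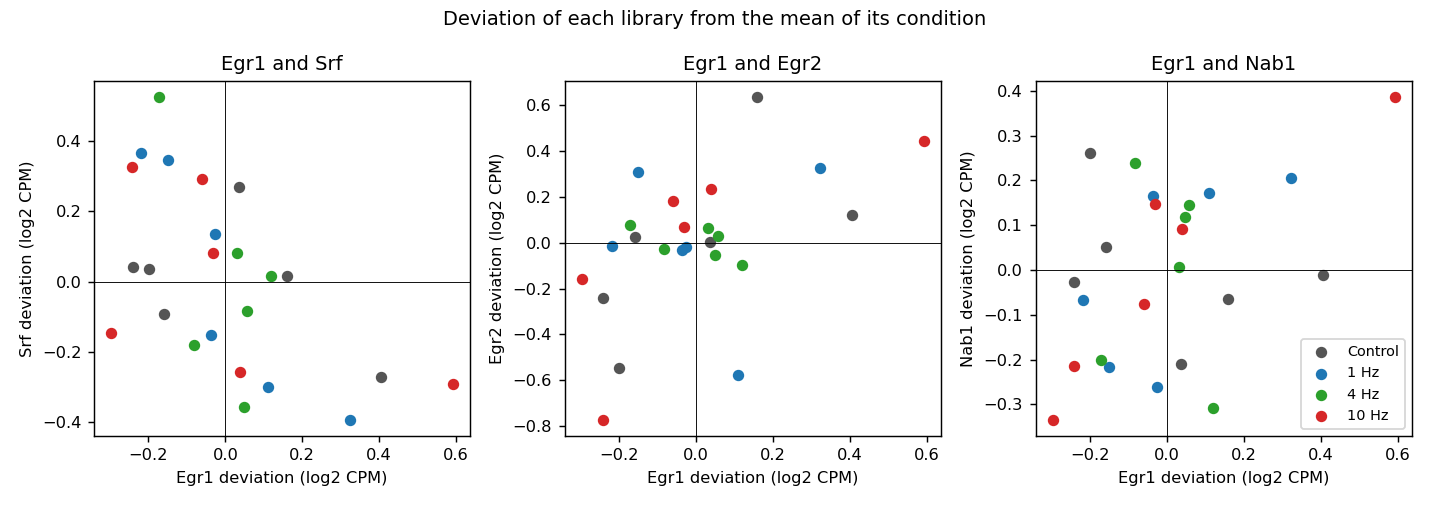
Deviation of each library from the mean of its condition in log2 CPM, for Egr1 (x axes) against Srf, Egr2, and Nab1 (y axes), colored by condition. Srf falls as Egr1 rises (r = -0.57), and 10Hz replicate 3 is the point farthest to the right in all panels.

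The genes whose pattern over the 24 libraries was most like that of Egr1 were Arid5b, Trib1, Itgb3, Dusp1, and Klf6, with a root mean square difference of 0.287 to 0.299 in centered log2 CPM against a median of 0.6 over 9294 genes. Dusp1, for instance, a phosphatase that inactivates MAP kinases, was at 92.1, 73.8, 33.5, and 49.7 CPM on average in Control, 1Hz, 4Hz, and 10Hz. Among the members the closest to Egr1 were Ier5 (0.435, rank 169), Egr2 (0.458, rank 345), and Myc (0.474, rank 554), while Nab2 (0.707, rank 7791) and Egr3 (0.643, rank 6177) were less alike than the median gene. The likeness follows the values by which Egr1 was chosen and carries no test.

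The wider pathway was read from 7 gene lists written from general knowledge. In the order 1, 4, and 10Hz against Control, all tested genes together had median log2 fold changes of -0.01, -0.01, and -0.01. Of all tested genes, 18.3%, 20.1%, and 1.86% were called, with 9.34%, 10.5%, and 1.24% higher. Of 11 tested EGR and SRF partners, 0, 1, and 0 were called, the 1 being Abra, an actin-binding activator of SRF signaling in striated muscle, higher by 0.96 ± 0.18 at 4Hz (edgeR adjusted p = 0.00021). The medians of that list were 0.27, 0.11, and -0.07. Of 17 genes on the ERK route to the SRF sites, 1, 2, and 0 were higher and 0 lower, with medians of 0.18, 0.02, and -0.03. Those were Hras, higher by 0.53 ± 0.11 at 4Hz (edgeR adjusted p = 0.000495), and Rps6ka5, a low gene outside the rule for named genes and chosen after its values were seen, which encodes the kinase MSK1 and was higher by 1.06 at 1Hz and 0.83 at 4Hz. With the small RNA share in the fit, 0 genes of either list were called at 1 and at 4Hz. Without Control replicate 4, 1 partner gene was called at 1Hz and 2 at 4Hz, and without Control replicate 6, 1 gene of the ERK route was called at 4Hz. The partner count at 10Hz became 1 with total count scaling, on log2(TPM + 1), or with the small RNA share. In those fits 245, 234, and 204 of all genes were called. That count was also 1 without Control replicate 4, 5, or 6 or without 10Hz replicate 5.

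The 33 other immediate early genes were called in both directions. At 1Hz 9 were higher and 4 lower (all genes, 9.34% and 8.99%), at 4Hz 5 were higher and 15 lower (10.5% and 9.61%), and at 10Hz 1 was higher and 8 lower (1.24% and 0.623%), with medians of 0.15, -0.34, and -0.21. Arc, an immediate early gene best known from neurons, had the largest rise at 1Hz (2.31 ± 0.19, edgeR adjusted p = 1.57e-08) and at 4Hz (1.64 ± 0.18, adjusted p = 4.42e-07). Fos, an AP-1 subunit and a CArG-box gene, had the largest fall at 1Hz (-1.26 ± 0.25, edgeR adjusted p = 0.000473) and 4Hz (-2.26 ± 0.27, adjusted p = 7.49e-07). At 10Hz these were Klf10 (0.56 ± 0.13, edgeR adjusted p = 0.0136) and Ccn1 (-1.18 ± 0.17, adjusted p = 0.000461), a matricellular growth factor gene. With the small RNA share in the fit, 1 gene of this list was called at 1Hz and 5 at 4Hz.

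Target genes of EGR1 and SRF were called higher and not lower at 1 and 4Hz, where 9.34% and 10.5% of all genes were higher, and most of these calls were lost with the small RNA share in the fit. Of 15 tested EGR1 target genes, 5 were higher and 0 lower at 1Hz, 5 higher and 0 lower at 4Hz, and 0 called at 10Hz, with medians of 0.21, 0.13, and -0.07. The largest rise was that of F3, the gene of tissue factor, at 1.14 ± 0.22 (1Hz, edgeR adjusted p = 0.000356) and 1.08 ± 0.22 (4Hz, adjusted p = 0.000425). The count at 1Hz became 3 without Control replicate 3, Control replicate 4, 1Hz replicate 4, or 1Hz replicate 6, the count at 4Hz became 3 with total count scaling, and both became 0 with the small RNA share. On log2(TPM + 1) they were 3 and 2. Of 17 SRF target genes of the cytoskeleton, 5 were higher and 0 lower at 1Hz and again at 4Hz, and 0 were called at 10Hz, with medians of 0.28, 0.21, and 0.05. Smooth muscle actin Acta2 rose most at 1Hz (1.09 ± 0.19, edgeR adjusted p = 9.24e-05) and transgelin Tagln at 4Hz (1.35 ± 0.21, adjusted p = 1.68e-05). With the small RNA share, 0 genes of the SRF list were called at 1Hz and 1 at 4Hz, and at 10Hz 1 was called without Control replicate 6 and 2 without 10Hz replicate 3. Acta1, called higher in this list at 1Hz (0.78) and 4Hz (0.83), is also among the 11 fiber markers whose summed level rose in the same libraries (above). At a mean of 4300 TPM it was the largest of those markers, so the list and that sum are not independent. The part of muscle fiber content in the count was not tested.

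Few genes of the MYC lists were called, beside 18.3%, 20.1%, and 1.86% of all tested genes at 1, 4, and 10Hz. Of 9 tested dimer partners and antagonists of MYC, 1 was lower at 1Hz and at 4Hz, namely Mycl (-0.51 and -0.57), just under the 10 CPM of the rule for named genes and chosen after its values were seen. The medians were 0.26, -0.10, and -0.20. Of 20 MYC target genes, 1 was higher at 1Hz and at 4Hz, and 0 at 10Hz, with medians of 0.06, 0.07, and 0.15. The gene was Srm, spermidine synthase, at 0.80 ± 0.16 (1Hz, edgeR adjusted p = 0.000458) and 0.79 ± 0.16 (4Hz, adjusted p = 0.000365). Mycl at 1Hz was not called without Control replicate 2, Control replicate 5, or 1Hz replicate 3. With the small RNA share as a covariate, 0 genes of the MYC dimer list were called at 1 and at 4Hz, and of the MYC target list 0 were called at 1Hz and 1 at 4Hz.

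**Figure D5:**
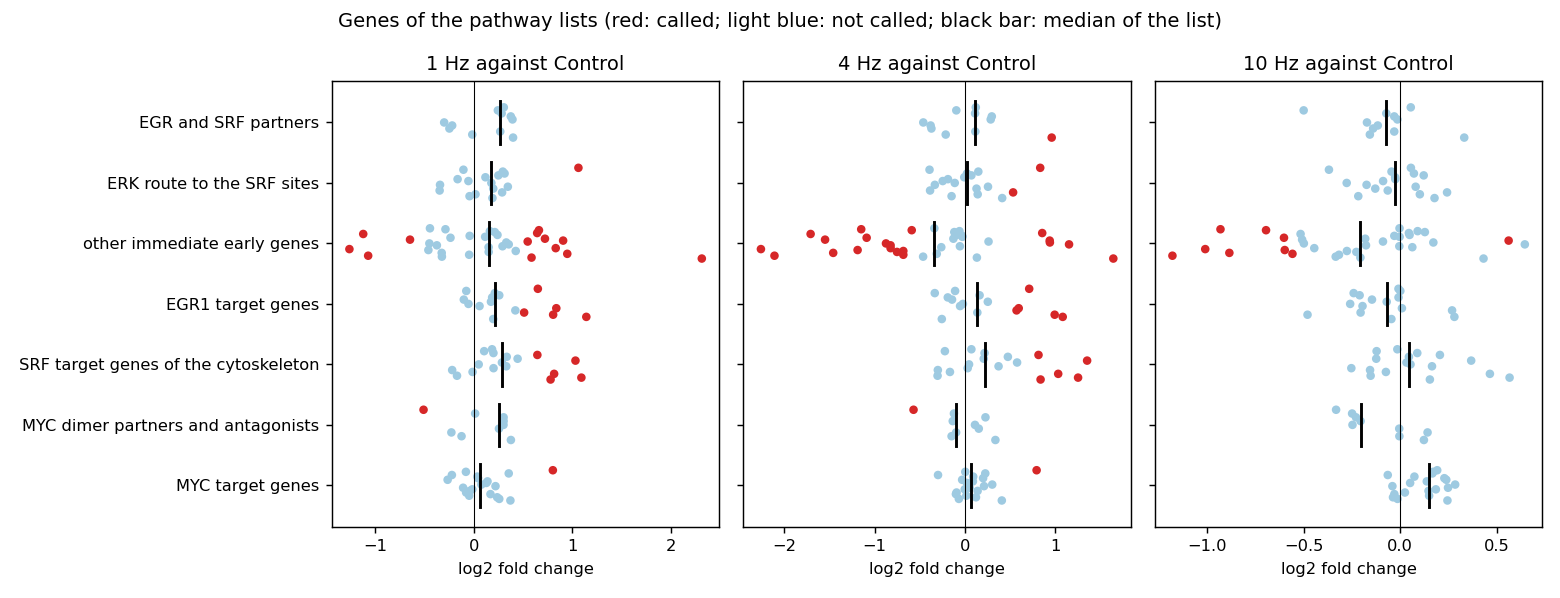
Log2 fold change against Control (x axis) of the genes of 7 pathway lists (y axis) at 1, 4, and 10Hz, with red points called, light blue points not called, and a black bar at the list median. The other immediate early genes spread to both sides, with Arc at 2.31 at 1Hz and Fos at -2.26 at 4Hz, and the red points of the SRF cytoskeleton list lie to the right.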

How the data were processed

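RNA from 24 ChR2::tdTomato C2C12 tissues, 6 per condition, was sequenced as paired-end reads after poly(A) selection, with some low-input samples ribodepleted. Per the study's methods, the authors ran nf-core/rnaseq with the GRCm39 genome and its Ensembl annotation. The deposited values were salmon estimated counts (expected counts per gene, not normalized) and, deposited separately, TPM, which the authors corrected for transcript length and brought to 1 sum per library. The submitters' processing notes also name STAR, BWA 0.7.12-r1039, and bedtools 2.25.0. The library kit was directional, and the strand setting of the counting and the Ensembl release are not given in the sources used here.

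Estimated counts were rounded. Genes were kept with filterByExpr, scaled by TMM, and fitted with edgeR 4.0.16 (glmQLFit, glmQLFTest, under R 4.3.3 with limma 3.58.1) in 1 fit of 24 libraries with condition as the only factor. The 6 pairs of conditions were tested as contrasts, and a gene was called at adjusted p below 0.05 with a log2 fold change beyond 0.5 either way. DESeq2 1.42.0, apeglm 1.24.0, and limma on log2(TPM + 1) and log2(TPM + 0.1) were alternatives, and fold changes on the latter scales understate changes of low genes. Relations with Egr1 used log2 CPM (prior count 2) and 100000 permutations within conditions. Library make-up was compared by exact permutation. The fit was also run on simulated counts with changes set at 1Hz only and no shift in the small RNA share. The outcome is not reported here, and it does not bear on that shift. Counting error set by total counts of 4.09 to 15.2 M is smallest for the abundant genes and largest for Egr2.

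Groups and replicate numbers came from the sample titles. At most 3 of the 6 same-numbered pairs of a comparison correlated above 0.1, and the numbers were not used as a block in the main fit. All members were named, with the 5 genes of at least 10 CPM closest to Egr1, and of each pathway list the called gene of at least 10 CPM with the largest rise and with the largest fall. Members and lists were chosen with earlier results of these data known. Positions and promoter windows came from GRCm39 and GENCODE M39, which need not be the authors' release. The promoter sequences of the other members are not reported here.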

Additional observations from a re-analysis of the deposited data

Results flagged for a closer look

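In 4 of 48 groups of 6 libraries tested, 1 library stood far from the other 5 by Dixon's test, which flags about 1 in 20 groups by chance. At 10Hz, replicate 3 was the highest for Egr1 (189 CPM) and for Ier3 (190 CPM). At 4Hz, replicate 6 was the highest for Myc (51.2 CPM). The small RNA share of 4Hz replicate 3 was 50.9 CPM, the highest at that frequency.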

How the results depend on the processing

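The counts of members called were recomputed under 13 alternatives for the comparisons with Control, 12 for the others, and without each library in turn. The 1Hz against Control count of 4 became 0 with the small RNA share as a covariate, where 1 of 13318 genes was called. The 4Hz against Control count of 1 became 5 by the adjusted p alone, 3 with total count scaling, 0 with the small RNA share, 4 on log2(TPM + 1), 5 on log2(TPM + 0.1), and 4 on log2(TPM + 1) without a filter. Of all genes, 2833 and 220 of 13318 were called with total count scaling and with the small RNA share. On log2(TPM + 1) and log2(TPM + 0.1), 2734 and 3045 of 13627 were called, and 2748 of 31566 without a filter. The 10Hz against Control count of 1 became 2 on each of the 3 TPM scales and 0 in a fit of the 12 compared libraries only. Those TPM scales called 234 and 257 of 13627 genes and, without a filter, 158 of 31566, and the 12 libraries 146 of 12636. The 10Hz against 1Hz count of 3 became 6 by the adjusted p alone. The 10Hz against 4Hz count of 1 became 3 by the adjusted p alone and 0 with the small RNA share, on log2(TPM + 1) without a filter, or with the 12 libraries only. In those last fits 0 of 13318, 831 of 31566, and 1280 of 12911 genes were called. By the adjusted p alone, 5251, 4829, and 3037 of all 13318 genes were called at 4Hz against Control, 10Hz against 1Hz, and 10Hz against 4Hz. The causes were not tested. Without 1 library the count at 4Hz against Control became 2 only without 4Hz replicate 6 (2503 of 13453 genes called). At 10Hz against Control it became 0 without Control replicate 2 (147 of 13435) and 2 without 10Hz replicate 1 (271 of 13446). For 10Hz against 4Hz it became 0 without 4Hz replicate 3 (1320 of 13446). At 1Hz against Control it became 3 without Control replicate 2, Control replicate 6, or 1Hz replicate 3 (2449 of 13435, 2488 of 13449, and 2306 of 13459). For 10Hz against 1Hz it became 4 without 1Hz replicate 1 or 2 (2751 of 13458 and 2464 of 13467). It also became 4 there without 10Hz replicate 1 or 4 (2182 of 13446 and 2479 of 13456). The calls of Egr2, Ier5, and Myc for 4Hz against 1Hz and of Egr2 and Myc for 10Hz against 1Hz held under each of these alternatives.

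The replicate number as a block gave 4, 1, 1, 3, 3, and 1 members called in the order of the comparisons, as without it. Of all 13318 genes, 2430, 2668, 266, 428, 2374, and 1468 were called in those fits. Same-numbered pairs correlated at -0.18 to 0.36, and 0 to 3 of the 6 pairs of a comparison lay above 0.1. Whether the number marks a shared batch was not tested. Of the relations with Egr1, 0 in place of 1 passed with the replicate block or with total count scaling, and 0 to 1 passed without each number in turn. Under the replicate block r turned to 0.10 for Egr3, 0.084 for Nab2, and -0.048 for Ier5, and the fold change of Srf at 4Hz against Control turned to -0.0053.

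The other values that changed sign were small and not called. With the small RNA share these were Nab2 at 4Hz against Control (0.029), Srf at 4Hz against Control (-0.036), Ier2 at 10Hz against 1Hz (-0.11), and Ier3 at 1Hz and 4Hz against Control (0.33 and 0.11) and 10Hz against 1Hz (-0.069). With total count scaling these were Srf at 4Hz (-0.092), Ier5 at 1Hz (-0.077), and the r of Ier2 (0.067, or 0.015 on log2(TPM + 1)). Ier5 at 1Hz was -0.022 with a minimum mean of 5 CPM. On log2(TPM + 1), log2(TPM + 0.1), and log2(TPM + 1) without a filter, Nab1 at 4Hz against 1Hz was -0.11, -0.12, and -0.11, Nab2 was -0.022, -0.023, and -0.022, Srf at 4Hz against Control was -0.16, -0.17, and -0.16, and Ier5 at 1Hz was -0.070, -0.072, and -0.070. Leaving out libraries gave ranges across zero for Egr3 at 10Hz against Control (-0.14 to 0.018), Nab1 at 4Hz against 1Hz (-0.0083 to 0.10), Nab2 at 4Hz against Control (-0.12 to 0.047), Srf at 4Hz against Control (-0.11 to 0.075), Ier2 at 10Hz against 1Hz (-0.022 to 0.17) and 4Hz (-0.19 to 0.0012), Ier3 at 10Hz against Control (-0.060 to 0.30, the low end without 10Hz replicate 3), and Ier5 at 1Hz against Control (-0.065 to 0.054). The r with Egr1 ranged from -0.15 to 0.077 (Ier2), -0.082 to 0.59 (Ier3), -0.0076 to 0.25 (Ier5), and -0.34 to 0.13 (Myc).

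Total count scaling moved the median over all tested genes at 4Hz against Control from -0.01 to -0.11, log2(TPM + 1) to -0.16, and log2(TPM + 0.1) to -0.18. The small RNA share, which lay lower in every library at 1 and 4Hz than in Control, limits the comparisons of both with Control, and depth limits Egr2 most.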
